A study of Mus musculus with 3 samples.

Results

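The exon junction complex (EJC) and nonsense-mediated mRNA decay (NMD) genes of a mouse macrophage line were measured in 3 RNA sequencing libraries. The set held 10 genes, the EJC genes Magoh, Magohb, Rbm8a, Eif4a3 and Casc3 and the NMD genes Upf1, Upf2, Upf3b, Smg1 and Smg6. They were taken by gene symbol from a table of 46078 genes, and all 10 were found, each under 1 identifier. All 10 had a mean of at least 1 FPKM (fragments per kilobase of exon, scaled to the counted reads of the library), as did 10849 genes of the table. The set was chosen because the Gene Ontology term for the exon junction complex had a high median in hydroxyurea against control. The genes were thus selected on the ratios of that contrast, whose values are given as a description only.

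The line was RAW 264.7, macrophages from a tumour induced by Abelson murine leukemia virus, at passages 10 to 15 in medium with 10% serum. The groups were cells given 0.5 mM hydroxyurea (HU) together with gold nanocages, cells given 0.5 mM HU, and untreated control cells, with RNA taken after 12 hours. HU blocks ribonucleotide reductase, so that replication forks run short of nucleotides. Each group was 1 library of 1 line, so no difference between groups has a replicate check. No test between conditions was made, and the difference between cultures cannot be told apart from that between treatments. No dose of the nanocages is given in the labels.

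The summed reads were 18644333 with HU plus gold nanocages, 20057329 with HU and 14990564 in control, so 1 read stood for 0.0536, 0.0499 and 0.0667 CPM (reads per 1000000 counted reads) in that order. In bulk RNA, fewer cells with a transcript and less of it per cell cannot be told apart. All 10 macrophage markers examined had a mean of at least 1 FPKM. None of 5 fibroblast, 3 T cell and 6 granulocyte and mast cell markers did, and their summed levels were at most 0.10 FPKM for any of these cell types in any library. Col1a1, Col1a2, Cd3e, Mpo and Elane had no reads.

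The EJC is a protein clamp that the spliceosome leaves on mRNA just upstream of each exon-exon junction. The RNA helicase EIF4A3 grips the RNA, the dimer of MAGOH and RBM8A (Y14) locks it, and CASC3 (MLN51) joins in the cytoplasm. A clamp that remains downstream of a stop codon marks the mRNA for NMD. UPF3B and UPF2 then bridge the clamp to the helicase UPF1, the kinase SMG1 phosphorylates UPF1, and the endonuclease SMG6 cuts the mRNA. Growing cells of most types need this pathway both to remove faulty mRNAs and to set the level of some normal ones.

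Magoh and Magohb encode nearly the same protein, so the first question was whether reads of 150 bases can tell their mRNAs apart. Their coding sequences, from GENCODE M21 on GRCm38 (mm10), matched at 356 of 438 aligned bases, or 81.3%. The longest run identical in both mRNAs was 17 bases. The 150 aligned coding bases with the fewest differences, which still held 23, are shown 5′ to 3′ because they are where reads are most alike; capitals mark the bases that differ between both genes.
Magoh: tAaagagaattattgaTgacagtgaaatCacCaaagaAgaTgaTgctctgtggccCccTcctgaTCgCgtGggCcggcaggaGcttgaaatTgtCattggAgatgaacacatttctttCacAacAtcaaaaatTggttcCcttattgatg
Magohb: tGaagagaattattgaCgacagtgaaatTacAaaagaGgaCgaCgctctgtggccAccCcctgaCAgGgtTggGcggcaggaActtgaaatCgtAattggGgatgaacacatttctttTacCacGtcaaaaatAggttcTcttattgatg
The Magoh stretch is bases 179 to 328 of its 438 coding bases, and the gene lies on the plus strand of chromosome 4 at 107879755 to 107887424. The Magohb stretch is bases 185 to 334 of 444, and the gene lies on the minus strand of chromosome 6 at 131284388 to 131293244. Differences thus stood throughout the stretch.

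The EJC core was led by Eif4a3, at 89.70 FPKM with HU plus gold nanocages, 88.34 with HU and 84.12 in control. It lies on chromosome 11 at 119288363 to 119300089. Magoh had 72.72 FPKM with HU plus gold nanocages, 71.94 with HU and 65.93 in control. Both genes were lowest in control and within a few percent of each other in the 2 libraries with HU. Rbm8a, the partner of Magoh, had 44.86 FPKM with HU plus gold nanocages, 44.51 with HU and 40.65 in control, the same order as for Magoh. It lies on chromosome 3 at 96629933 to 96633791. Per length, Rbm8a stood at 0.6007, 0.6031 and 0.5996 of the summed level of Magoh and Magohb in those libraries, so the proportion of both dimer partners was nearly equal in all 3. Casc3 had 24.27 FPKM with HU plus gold nanocages, 22.19 with HU and 26.74 in control. Casc3, on chromosome 11 at 98804905 to 98833814, was the core gene that was highest in control and lowest with HU.

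Magohb was the scarcest of the 10, at 1.96 FPKM with HU plus gold nanocages, 1.86 with HU and 1.86 in control. These levels rest on 63, 64 and 48 reads, which leaves its ratios the least precise of the set. Per length, Magoh was 37.0-fold above Magohb with HU plus gold nanocages (95% counting interval 28.7 to 48.5), 38.8-fold with HU (30.1 to 50.7) and 35.4-fold in control (26.4 to 48.5). The intervals overlap widely, but no interval was computed for the change of this ratio between libraries, so a difference was not tested. The exonic size the authors divided by was 1720 bases for Magohb, above the 767 bases of its coding transcript, and 770 for Magoh, against 692. That size makes the FPKM of Magohb low for the coding mRNA. The processed pseudogene Gm44958 lies over 520 exonic bases of Magohb on the same strand, and its reads were not analysed here.

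Of the NMD genes, Upf1 was the most abundant, at 40.95 FPKM with HU plus gold nanocages, 40.61 with HU and 40.98 in control. The level of this central helicase, whose gene lies on chromosome 8 at 70331525 to 70353278, was thus nearly equal in the 3 libraries. Smg1, the kinase that acts on UPF1, had 14.24 FPKM with HU plus gold nanocages, 14.11 with HU and 14.41 in control. It rests on the most reads of the set, 5635, 6008 and 4586 in the same order, spread over an exonic size of 21225 bases on chromosome 7 at 118131308 to 118243670. Smg6, the endonuclease gene, had 6.64 FPKM with HU plus gold nanocages, 6.85 with HU and 6.21 in control. It was lowest in control, and it spans 238626 bases of chromosome 11, at 74925823 to 75164448, the longest gene of the set.

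The genes of the bridge from the EJC to UPF1 were those of the NMD group that varied most. Upf3b, on the X chromosome at 37091678 to 37110322, had 12.12 FPKM with HU plus gold nanocages, 12.19 with HU and 10.16 in control. Both libraries with HU were high and control was low. Upf2, on chromosome 2 at 5951469 to 6056703, had 11.64 FPKM with HU plus gold nanocages, 10.15 with HU and 9.82 in control. Here the library with nanocages was high and the other 2 were close together.

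**Figure D1:**
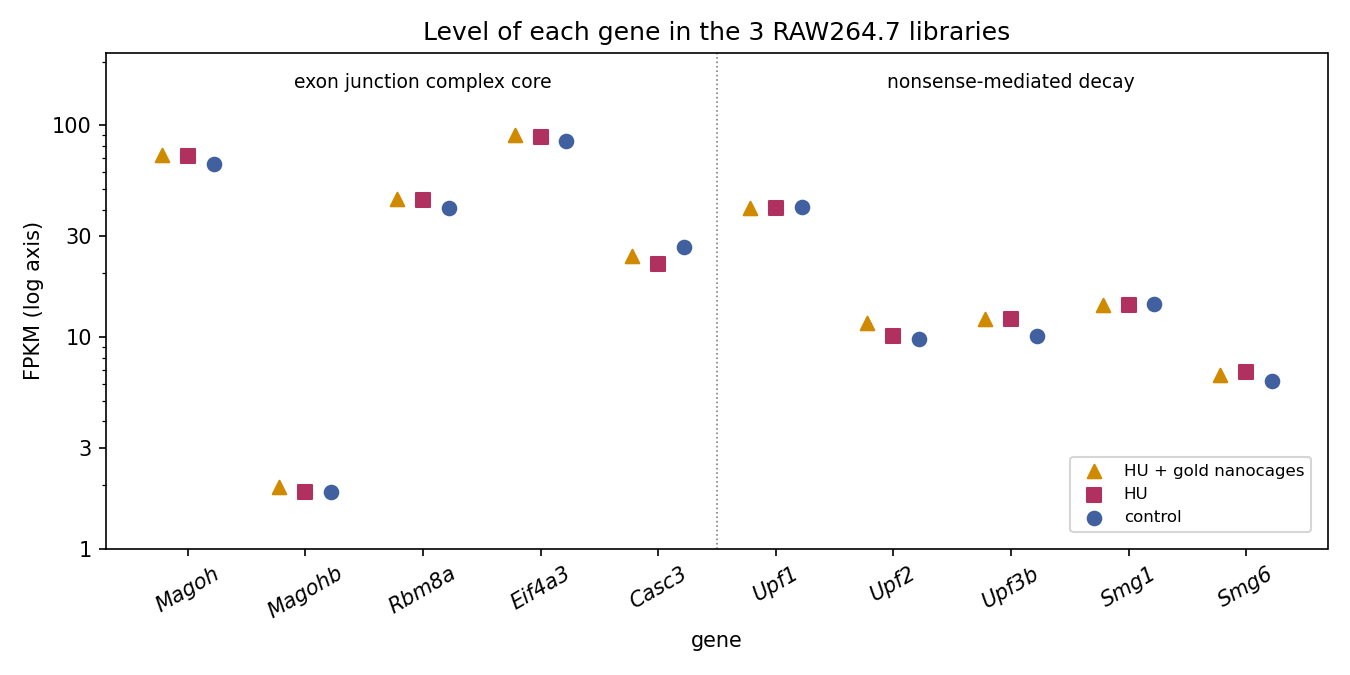
FPKM on a log axis of the 10 genes in HU plus gold nanocages (triangles), HU (squares) and control (circles), 1 library each. The order of the genes is nearly the same in the 3 libraries, from Eif4a3 at 84.12 to 89.70 FPKM down to Magohb at 1.86 to 1.96 FPKM.

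The order of the genes by FPKM was Eif4a3, Magoh, Rbm8a, Upf1, Casc3, Smg1, Upf3b, Upf2, Smg6 and Magohb in both libraries with HU. Control differed only in that Upf1 stood before Rbm8a, and those neighbours did not differ there beyond counting error (1.01-fold, 0.952 to 1.07). Upf3b and Upf2 did not differ beyond it with HU plus gold nanocages (1.04-fold, 0.954 to 1.137) or in control (1.03-fold, 0.929 to 1.15), but did with HU (1.20-fold, 1.10 to 1.31). All other neighbours in the order were apart in all 3 libraries. This order rests on the exonic size the authors divided by, which differed from the coding transcript by unlike amounts. It was 3999 bases against 2344 for Upf3b, 21225 against 15557 for Smg1 and 3215 against 2604 for Rbm8a. For Upf1 it was 4616 against 4618. The order by transcript length was not examined. Eif4a3 lay at percentile 93.9, 93.9 and 93.5 of the 10849 genes in HU plus gold nanocages, HU and control, and Magohb at percentile 9.84, 9.13 and 9.65. The summed level of the 5 EJC genes was 233.5, 228.8 and 219.3 FPKM in the same order, and that of the 5 NMD genes was 85.6, 83.9 and 81.6 FPKM.

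In HU against control, no gene of the set was 25% higher or 20% lower in CPM, a size that 19.3% of the 10849 genes reached. Of genes with a mean of at least 5 FPKM, as all of the set but Magohb had, 12.4% reached it. Folds here are plain ratios of CPM, which equal ratios of FPKM, with exact (Clopper-Pearson) 95% intervals that cover counting error of reads only. Upf3b had the highest ratio at 1.20-fold (1.08 to 1.33), from 978 reads with HU and 609 in control. Its log2 ratio of 0.26 lay at percentile 87.1 of all genes. Casc3 had the lowest at 0.830-fold (0.777 to 0.886), from 1915 and 1725 reads, a log2 ratio of -0.27 at percentile 11.3. These are the ends of the set, and both lie inside the central 90% of all genes.

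Rbm8a was at 1.09-fold (1.03 to 1.16) and Smg6 at 1.10-fold (1.01 to 1.21), both above counting error. In all, 3 of 10 genes were above and 1 below counting error, beside 18.7% and 20.1% of all genes. Nothing is read from these counts, since this contrast chose the genes. The other 6 had intervals that include 1. Magoh was at 1.09-fold (0.994 to 1.20), the same size as its partner Rbm8a with fewer reads behind it, and Eif4a3 was at 1.05-fold (0.999 to 1.10). Upf2 was at 1.03-fold (0.943 to 1.13), Upf1 at 0.991-fold (0.943 to 1.04), Smg1 at 0.979-fold (0.942 to 1.02) and Magohb at 0.997-fold (0.675 to 1.48). The interval was narrowest for Smg1 and widest for Magohb.

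The median log2 ratio of the 10 genes was 0.06, beside -0.01 over all genes. The Gene Ontology term behind the choice held 20 table rows for 19 symbols, among them 9 of the 10 genes, all but Smg1. Its 19 rows with a mean of at least 1 FPKM had a median of 0.12, and 16 of them had a ratio above 1, beside 5217 of 10849 genes. Among its 10 other symbols, looked up after the data were seen, Upf3a (1.23-fold, 1.09 to 1.40) and the splicing genes Srsf1 (1.09-fold, 1.06 to 1.13), Thrap3 (1.09-fold, 1.05 to 1.12), Acin1 (1.09-fold, 1.05 to 1.13) and Pnn (1.16-fold, 1.10 to 1.22) were above counting error. Over all genes 18.7% were above counting error. Nothing is read from the counts of the term, since this contrast chose it. The 10 genes described here had a lower median than the term itself.

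Ratios between 2 genes of the same libraries do not depend on how the libraries are scaled. Casc3 relative to Eif4a3 was 0.251 per length with HU and 0.318 in control, a ratio of 0.790 (0.727 to 0.858). Casc3 relative to Rbm8a was 0.499 with HU and 0.658 in control, a ratio of 0.758 (0.694 to 0.827). Casc3 was the gene with the lowest ratio in the contrast that chose the set, so these values are a description, and it was not set against Magoh or Magohb in this way. Magoh relative to Rbm8a was 1.62 with HU and 1.62 in control, a ratio of 0.997 (0.893 to 1.11). Upf3b relative to Upf1 was 0.300 with HU and 0.248 in control, a ratio of 1.21 (1.08 to 1.36). Smg6 relative to Smg1 was 0.485 with HU and 0.431 in control, a ratio of 1.13 (1.02 to 1.24).

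**Figure D2:**
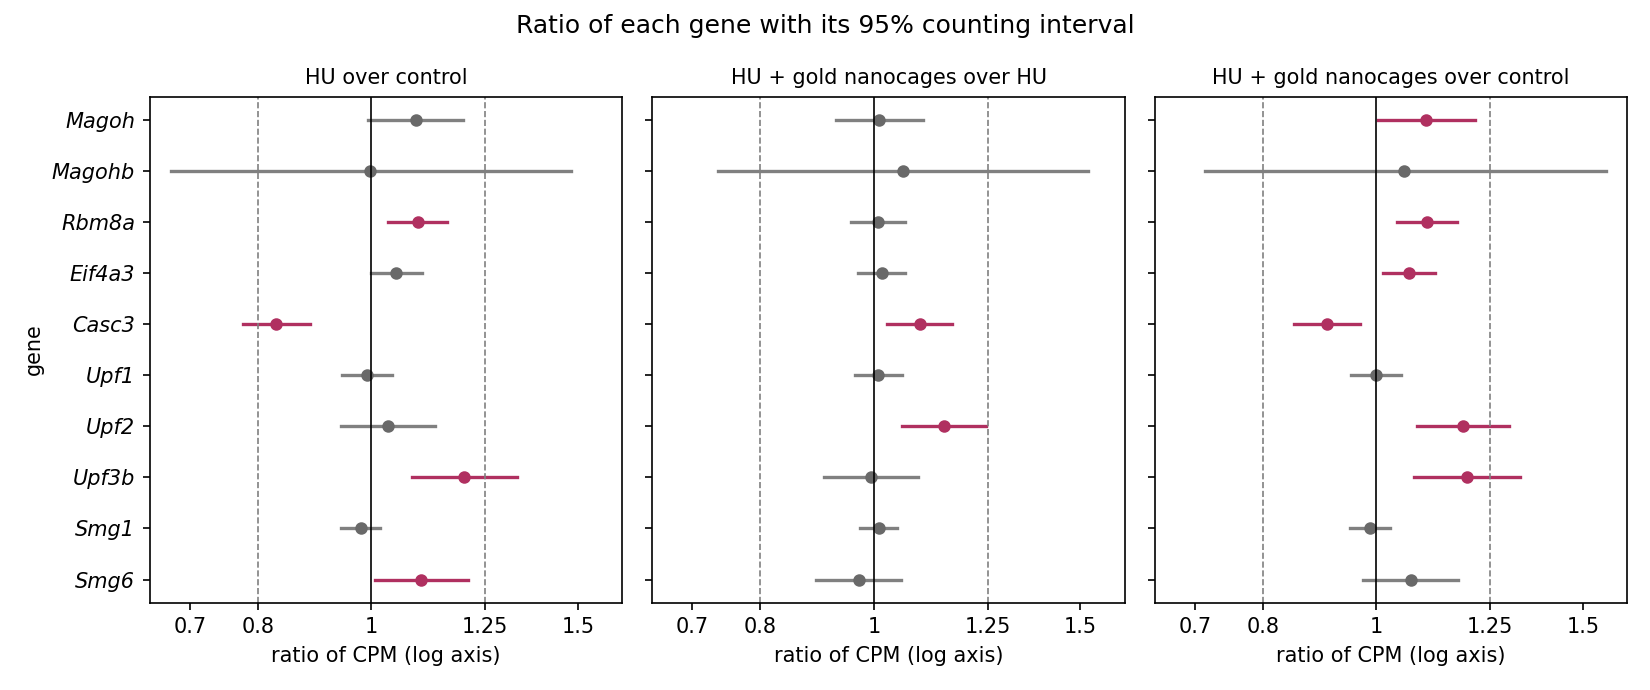
Ratios of CPM (points, log axis) with 95% counting intervals (bars) of the 10 genes in 3 contrasts of single libraries; red marks intervals that leave out 1 and dashed lines mark 25% higher and 20% lower. No point passes a dashed line; Casc3 at 0.830-fold and Upf3b at 1.20-fold are the outermost points of HU over control, and Upf2 at 1.15-fold that of HU plus gold nanocages over HU.

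The library with HU plus gold nanocages was set against that with HU alone. None of the 10 genes was 25% higher or 20% lower with nanocages, beside 7.05% of all genes. Upf2 was at 1.15-fold (1.056 to 1.246), from 1188 reads with nanocages and 1114 with HU alone, at percentile 92.3 of the log2 ratios of all genes. Casc3 was at 1.09-fold (1.03 to 1.17), from 1947 and 1915 reads, at percentile 85.7. These 2 of 10 were above counting error and none was below, beside 8.35% and 7.78% of all genes. In a set of 10, a share of 8.35% is about 1 gene. The HU library belongs to the contrast on which the genes were chosen, so nothing is read from these counts.

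The other 8 genes had intervals that include 1. Close to equal levels were Magoh (1.01-fold, 0.928 to 1.10), Rbm8a (1.01-fold, 0.956 to 1.06), Eif4a3 (1.02-fold, 0.970 to 1.06), Upf1 (1.01-fold, 0.963 to 1.06), Upf3b (0.994-fold, 0.907 to 1.09) and Smg1 (1.01-fold, 0.973 to 1.05). Smg6 was at 0.970-fold (0.892 to 1.06) and Magohb at 1.06-fold (0.736 to 1.52). The median log2 ratio was 0.01 for the 10 genes and 0.004 for all genes. Upf2 relative to Upf1 was 0.284 with nanocages and 0.250 with HU alone, a ratio of 1.138 (1.035 to 1.251). This value does not depend on library scaling. It uses the same Upf2 reads with Upf1, at 1.01-fold, as the reference, so it is no separate check of the Upf2 difference. Casc3 relative to Eif4a3 was 0.271 and 0.251, a ratio of 1.08 whose interval included 1 (0.996 to 1.17).

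HU plus gold nanocages against control shares the control library with the HU contrast and the nanocage library with the contrast before. Again none of the 10 genes was 25% higher or 20% lower, beside 19.5% of all genes. Of genes with a mean of at least 5 FPKM the share was 12.8%. Upf3b was at 1.19-fold (1.08 to 1.32), Upf2 at 1.19-fold (1.08 to 1.30), Rbm8a at 1.10-fold (1.04 to 1.17), Magoh at 1.10-fold (1.00 to 1.21) and Eif4a3 at 1.07-fold (1.01 to 1.12). These 5 of 10 were above counting error, beside 19.6% of all genes. Nothing is read from that count either, since the control library belongs to the contrast on which the genes were chosen. Casc3 at 0.908-fold (0.850 to 0.969) was the 1 gene below, beside 20.1% of all genes. Smg6 (1.07-fold, 0.974 to 1.17), Magohb (1.06-fold, 0.713 to 1.57), Upf1 (0.999-fold, 0.951 to 1.05) and Smg1 (0.988-fold, 0.9500 to 1.03) had intervals that include 1. The median log2 ratio of the 10 was 0.09, and that of all genes -0.004.

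Casc3 and the Upf genes thus lay in different orders over the libraries. Casc3 with nanocages stood between HU and control. Upf3b was as high with nanocages as with HU alone, and Upf2 was above control beyond counting error with nanocages, while its interval for HU alone included 1. Whether the 2 contrasts with control differ for any of them was not tested beyond the direct contrast of both libraries with HU.

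The other genes of the pathway were counted by list. The list of EJC periphery and mRNA export held 13 genes, all measured. In HU against control 4 were above and 2 below counting error, against shares of 18.7% and 20.1% over all genes. Their median log2 ratio was 0.02. Above were the export adaptor gene Alyref (1.16-fold, 1.10 to 1.23), Pnn (1.16-fold), the splicing coactivator gene Srrm1 (1.13-fold, 1.09 to 1.17) and Acin1. Below were the helicase gene Ddx39b (0.948-fold, 0.9199 to 0.9775) and the export receptor gene Nxf1 (0.948-fold, 0.906 to 0.992). Sap18, at 1.12-fold (0.925 to 1.36), was within counting error.

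With nanocages against HU, 3 of these 13 were above and 2 below, beside 8.35% and 7.78% of all genes, with a median of -0.04. Alyref was at 1.254-fold (1.197 to 1.314), at 54.35 FPKM with HU plus gold nanocages, 43.32 with HU and 37.24 in control. It was the only 1 of the 13 genes at least 25% higher in this contrast, and none was 20% lower. Over all genes 7.05% were past the fold in either direction, so this count is near that share. With median-of-ratios scaling, or with 1 FPKM added before the ratio, Alyref was no longer 25% higher and the count was 0. Cwc22, whose product recruits EIF4A3 to the spliceosome, was at 1.10-fold (1.03 to 1.18) and Pnn at 1.07-fold (1.03 to 1.12). Acin1 (0.942-fold, 0.906 to 0.979) and Ddx39b (0.970-fold, 0.942 to 0.999) were below. Sap18 (0.919-fold, 0.768 to 1.10) and Nxt1 (0.927-fold, 0.844 to 1.02) were within counting error.

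Of 12 other NMD factors, all measured, 10 were within counting error in HU against control, with 1 above and 1 below beside 18.7% and 20.1% of all genes, and the median log2 ratio was -0.01. Pnrc2, which encodes a cofactor of mRNA decapping, was the exception on the low side, at 32.21 FPKM with HU plus gold nanocages, 30.62 with HU and 46.30 in control. Its ratio of 0.661 (0.614 to 0.712) in HU against control was over 20% lower, and with nanocages against HU it was 1.05-fold (0.975 to 1.136). Upf3a, the paralog of Upf3b, had 26.17 FPKM with HU plus gold nanocages, 23.01 with HU and 18.65 in control. It was at 1.23-fold (1.09 to 1.40) in HU against control and 1.137-fold (1.02 to 1.27) with nanocages against HU. Per length, Upf3a stood above Upf3b in all 3 libraries, though Upf3b had more reads in each. Those were 904, 978 and 609 for Upf3b against 684, 647 and 392 for Upf3a, in the same order. The exonic size divided by was 3999 bases for Upf3b, above the 2344 of its coding transcript, and 1402 for Upf3a. The longest identical run in both mRNAs was 15 bases. Dhx34 (1.07-fold, 0.981 to 1.16) and Smg9 (0.964-fold, 0.894 to 1.04) were within counting error in HU against control, as they were with nanocages (0.939-fold, 0.867 to 1.02 for Dhx34 and 0.945-fold, 0.878 to 1.02 for Smg9). With nanocages against HU 2 of the 12 were above and none below, beside 8.35% and 7.78% of all genes, with a median of 0.02; the other 1 above was the release factor gene Etf1 (1.03-fold, 1.00 to 1.07). With 99% intervals neither was.

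The 11 genes of decapping and exonucleases, all measured, had 2 above and 4 below counting error in HU against control, against shares of 18.7% and 20.1% over all genes. Their median log2 ratio was -0.07 and became -0.0043 at a mean of at least 5 FPKM, and with 99% intervals 3 genes in place of 6 were outside counting error. Xrn1, the cytoplasmic exonuclease that degrades decapped mRNA, was lowest at 0.836-fold (0.774 to 0.904), with Dcp1a (0.915-fold), Xrn2 (0.951-fold) and Cnot1 (0.930-fold) also below. Exosc10 (1.10-fold, 1.05 to 1.16) and Dcp2, the decapping enzyme gene (1.09-fold, 1.00 to 1.20), were above, and Dcp1b (0.881-fold, 0.742 to 1.05) was within. With nanocages against HU only Dis3 (1.06-fold, 1.01 to 1.11) was above counting error and none was below, beside 8.35% and 7.78% of all genes. The median was -0.02, and with 99% intervals no gene was outside counting error. Dcp1b (0.938-fold, 0.791 to 1.11), Edc4 (0.959-fold, 0.907 to 1.01) and Cnot7 (0.969-fold, 0.906 to 1.04) were within counting error.

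Transcripts known as NMD targets in mouse or human cells lay on both sides of equal levels. Of 13 listed, 12 were found and 11 measured. In HU against control 5 were above and 3 below counting error, beside 18.7% and 20.1% of all genes. At least 25% higher were 4 and at least 20% lower 3, beside 19.3% of all genes in either direction. Their median log2 ratio was 0.16, and 0.24 at a mean of at least 5 FPKM or with no minimum. Gadd45b, a stress gene, was at 1.57-fold (1.36 to 1.82), Atf3 at 1.43-fold (1.23 to 1.67), Snhg12 at 1.42-fold (1.24 to 1.64), Snhg15 at 1.41-fold (1.22 to 1.65) and the snoRNA host Gas5 at 1.24-fold (1.17 to 1.32). Ddit3, which encodes CHOP, was at 0.563-fold (0.480 to 0.660), Tbl2 at 0.788-fold (0.725 to 0.857) and Atf4 at 0.796-fold (0.774 to 0.819). As background, Atf3, Atf4 and Ddit3 are also genes of the integrated stress response.

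With nanocages against HU 2 of the 11 were above and none below, beside 8.35% and 7.78% of all genes, with a median of 0.03. These were Gas5 (1.10-fold, 1.04 to 1.16), at 39.11 FPKM with nanocages and 35.71 with HU alone, and Hnrnpd (1.06-fold, 1.02 to 1.10). Snhg15 (0.928-fold, 0.816 to 1.06) and Snhg12 (0.951-fold, 0.843 to 1.07) were within counting error. Gadd45a, with 41, 32 and 19 reads in HU plus gold nanocages, HU and control, was below the mean of 1 FPKM, and Snhg1 was not analysed here.

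**Figure D3:**
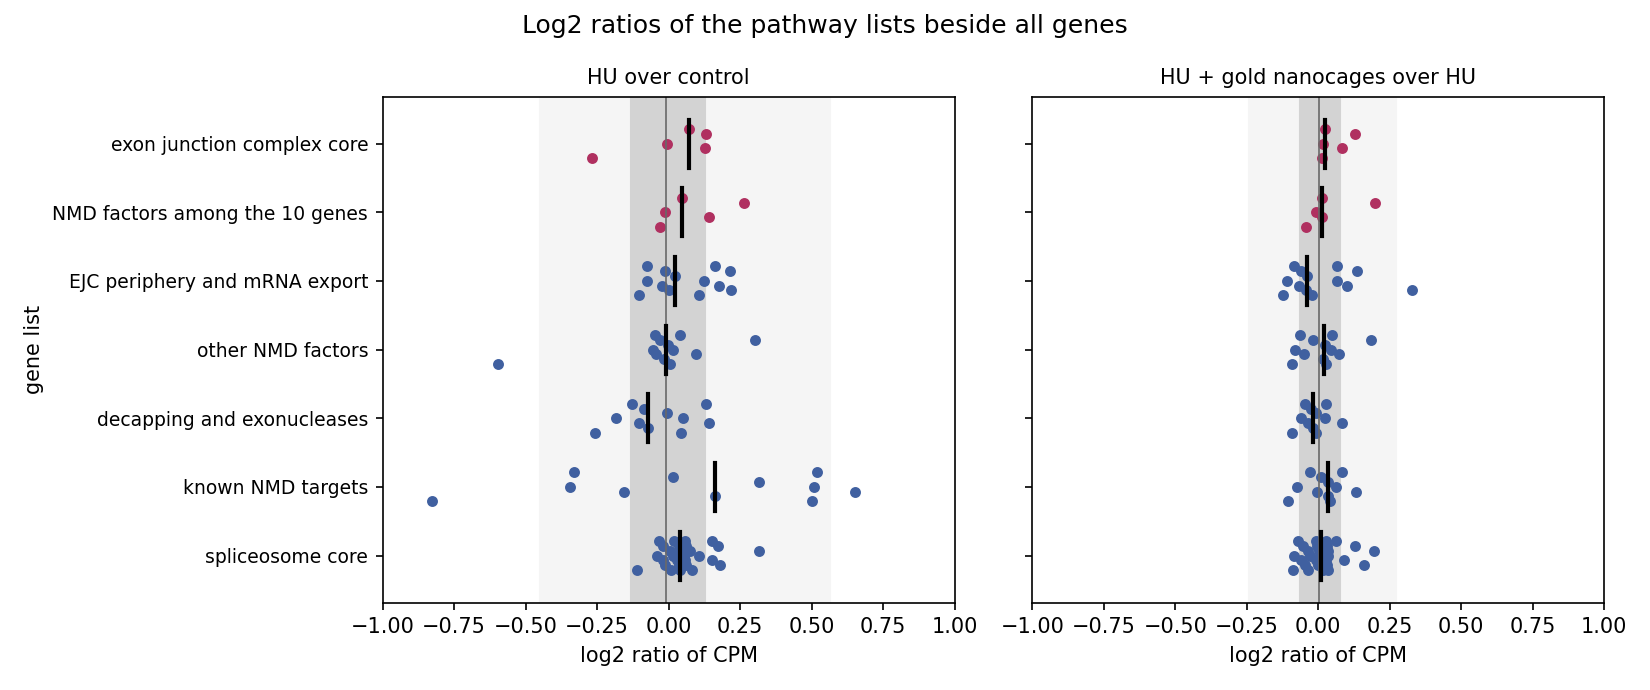
Log2 ratios of CPM of measured genes (points) by list, with the list median (black bar), for HU over control and HU plus gold nanocages over HU; the 2 upper lists (red) are the 10 genes of the set, and grey bands hold the central 50% and 90% of 10849 genes. Of the 10 genes, Casc3, Magoh, Rbm8a, Smg6 and Upf3b lie outside the central 50% and none outside the central 90% in HU over control, with list medians of 0.07 and 0.05 in HU over control, while the known NMD targets spread from -0.83 to 0.65.

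Genes of the core spliceosome, which deposits the EJC, were counted beside it. Of 28 genes, all measured, 6 were above and none below counting error in HU against control, beside 18.7% and 20.1% of all genes. The share of 21.4% above counting error is thus near that of all genes. A ratio above 1 was seen for 22 of the 28, beside 5217 of 10849 genes. The median log2 ratio was 0.04, beside 0.07 for the 5 EJC genes, 0.05 for the 5 NMD genes and -0.01 for all genes. Prpf4 (1.246-fold, 1.157 to 1.342), Snrnp70 (1.13-fold, 1.09 to 1.16), Prpf19 (1.11-fold, 1.06 to 1.16) and Prpf8 (1.11-fold, 1.09 to 1.13) were among those above, and Snrpg (1.13-fold, 0.879 to 1.46) was within. With nanocages against HU 3 were above and 3 below, beside 8.35% and 7.78% of all genes, with a median of 0.01; with 99% intervals 3 in place of 6 were outside counting error. Above were Crnkl1 (1.145-fold, 1.04 to 1.26), Cdc5l (1.09-fold, 1.02 to 1.17) and Snrpd1 (1.06-fold, 1.01 to 1.12), and below were Snrnp70 (0.940-fold), Snrpb (0.958-fold) and U2af2 (0.969-fold). Snrpg was at 1.12-fold (0.892 to 1.40). No difference between these lists was tested.

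Related copies bear on how the counts of the set can be read. Rbm8a2, a copy of Rbm8a that shares a run of 116 identical bases with it, had 2, 0 and 2 reads in HU plus gold nanocages, HU and control, against 2689, 2870 and 1959 for Rbm8a. The helicase genes Eif4a1 (108.99, 111.46 and 110.44 FPKM in the same order) and Eif4a2 (47.00, 44.31 and 43.26 FPKM) act in translation initiation and share runs of at most 23 bases with Eif4a3. In HU against control Eif4a1 was at 1.01-fold (0.979 to 1.04) and Eif4a2 at 1.02-fold (0.980 to 1.07). With nanocages against HU they were at 0.978-fold (0.9499 to 1.01) and 1.06-fold (1.02 to 1.10).

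Exons of Casc3, Smg6 and Upf1 overlap genes on the other strand, and without a stated strand setting such reads cannot be told apart. Exons of Casc3 share 494 bases with the antisense gene Gm12359, which had 22, 30 and 15 reads in HU plus gold nanocages, HU and control. On the same strand they share 15 bases with Msl1, which had 1794, 2055 and 1637 reads in that order. Exons of Smg6 share 126 bases with Srr, which had 319, 348 and 248 reads, and those of Upf1 share 68 bases with Cers1, which had no reads. In the annotation, 5 transcripts of the 10 genes carry the NMD biotype, 3 of Magohb and 1 each of Smg1 and Smg6. The gene counts do not separate transcripts, so their levels were not measured.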

How the data were processed

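RNA of 3 RAW 264.7 cultures was read as 150-base pairs. The authors deposited 1 table with whole-number read counts per gene, not normalized, and FPKM, which equal count divided by exonic size and summed count for 100% of genes (within 0.0052). The exonic size is an other kind of value, a length that the authors deposited in bases. The submitters' processing notes name HISAT2 2.0.1, SAMtools 0.1.18, HTSeq 0.6.1, DESeq, cutadapt, bcl2fastq and the build mm10. Their settings and whether counting used strand are not given.

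CPM ratios, exact (Clopper-Pearson) 95% intervals and medians were computed over genes with a mean of at least 1 FPKM (Python 3.11.15, SciPy 1.17.1). The interval was tested on simulated data. A gene was called past the fold when 25% higher or 20% lower, and outside counting error when its interval left out 1. Intervals cover counting error only, as reads carry no molecular identifiers. Alternatives used edgeR 4.0.16 (TMM) and DESeq2 1.42.0 (size factors) for scaling only. Positions came from GENCODE M21, which holds 98.0% of the identifiers.

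Members and lists were chosen with earlier results of these data known. Named were the 10 genes, up to 4 genes per other list with the largest absolute log2 ratio in each of HU against control and nanocages against HU, related copies, and genes needed to complete a count, which were chosen after their values were seen. The copies Eif4a3l1 and Eif4a3l2 were not analysed here.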

Additional observations from a re-analysis of the deposited data

How the results depend on the processing

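With 1 library per condition, counting error is the only error measured, and Magohb, with 48 to 64 reads per library, is the gene it limits most. No paired analysis was possible because each condition has 1 library.

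The count of 0 of 10 genes past the fold held in the 3 contrasts with TMM, median-of-ratios and nuclear-gene scaling. It held with pseudocounts of 1 and 0.1 FPKM, with summed identifiers, and with a minimum of 5 FPKM (which leaves out Magohb) or none. At 1.5-fold and 2-fold it held too, which follows from the main count. Among all genes, nanocages against HU had 2.06% past the fold at a minimum of 5 FPKM and 24.8% with none. It had 2.68% at 1.5-fold and 1.23% at 2-fold. HU against control had 7.64% and 3.12% at those folds, and nanocages against control 8.53% and 3.28%. Where the share is so low, 0 of 10 says little. The median log2 ratio of the 10 genes ranged from 0.057 to 0.071 in HU against control, from 0.0091 to 0.016 with nanocages against HU and from 0.088 to 0.099 with nanocages against control. The calls of Casc3, Upf3b, Rbm8a and Upf2 against counting error were the same in all alternatives run. Eif4a3 in HU against control was above counting error with TMM scaling (1.002 to 1.107) and with nuclear genes only (1.001 to 1.106). With 99% intervals Smg6 in HU against control (0.978 to 1.24) and Magoh (0.975 to 1.249) and Eif4a3 (0.998 to 1.139) with nanocages against control were within it, which left 3 genes above counting error in that contrast. Counting intervals have no pseudocount, so those alternatives were not run for them. The median of the other NMD factors with nanocages against control was 0.0010, and -0.0040 with median-of-ratios scaling. A change of scaling moves the log2 ratios of all genes in a contrast by the same amount. The median of all genes moved from -0.0040 to -0.0091. Of 642 further counts and medians under the alternatives, most of them of the other lists, 32 moved by over 1.5 times or 0.05 in log2, 23 of these under a stricter fold or interval.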
